A study of Homo sapiens with 4 samples.

Results

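The comparison described here is KBM5 cells given both drugs of the study (IM-DSF) against the untreated control (CTR), 1 RNA-seq library each out of the 4 libraries of the series. Genes of the deposited table were kept where FPKM averaged 1 or more across all 4 libraries, which left 11004 of 50868 genes. FPKM counts fragments by gene length and library depth. For each gene the difference is log2(FPKM + 1) in IM-DSF minus that in CTR, which understates the change of low genes. A gene is called higher or lower when this difference reaches 1 log2 unit, which is 2-fold on that scale. Each group is 1 library, so no difference has a replicate check and none carries a p-value. Intervals given for ratios of FPKM are 95% intervals from approximate fragment numbers and cover counting error only.

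KBM5 is an established human cell line from chronic myeloid leukemia, and the study title asks about joint targeting of GPX4 and BCR-ABL in leukemia stem cells. The groups are the untreated line (CTR), the line given DSF, the line given IM, and the line given both. The labels give no dose and no time, and they do not spell out the codes, which are read here as imatinib, an inhibitor of the BCR-ABL kinase, and disulfiram. The models are cultures of 1 cell line with no normal blood cells beside them.

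BCR-ABL is a fusion kinase that keeps myeloid cells dividing through STAT5, RAS-ERK and PI3K-AKT signalling, and its inhibition releases FOXO transcription factors and lowers MYC-driven growth programs. GPX4 reduces lipid hydroperoxides with glutathione, and its loss leads to ferroptosis, an iron-dependent form of cell death. Disulfiram is known as an inhibitor of aldehyde dehydrogenase, and its copper complex is known to act on the p97-NPL4 segregase that feeds proteins to the proteasome.

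The libraries had denominators of 12.4 (IM-DSF) to 15.8 (IM) in units of 1e+06 fragments, and mitochondrial genes held 30.1% to 32.6% of the summed FPKM. Of the defining myeloid markers, CD33 had 8.56 FPKM untreated, 8.07 with DSF, 9.22 with IM and 8.40 with both. SPI1, the myeloid transcription factor PU.1, had 58.1, 62.4, 70.1 and 52.7 FPKM in the same order, and MPO, the peroxidase of granule-bearing precursors, had 2.49, 3.23, 3.49 and 2.79. KIT was listed at 0 in all 4 libraries and CD34, a stem cell marker, at no more than 0.00554 FPKM. The label of a myeloid leukemia line therefore had its lineage markers, while the 2 defining progenitor markers were at or near 0.

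In the combination, genes of mature myeloid cells, lysosomal enzymes and antigen presentation were higher, and STAT5 targets and chaperones were lower. Proteasome, ribosome biogenesis and cell cycle lists lay below CTR in nearly every member, by amounts mostly under the size rule. Of 11004 genes, 279 were called higher (2.54%) and 192 lower (1.74%). At these shares a short list would hold few or no called genes, so a list without a call is not by itself a result about its members. The median difference over all genes was 0.02, with 5735 genes above CTR and 5267 below. For 77.3% of genes the difference was within 0.5 log2 units, and 13 higher and 19 lower genes passed 2 log2 units. The interval of the ratio excluded 1 for 270 of the 273 higher genes that have one and for 190 of 191 lower genes. These intervals come from the same values that made the calls, so this outcome was largely set by the size rule and is no separate support. In bulk RNA, a change in the share of cells of a kind and a change in RNA per cell cannot be told apart. Of the genes named below, exons of another gene overlap on the opposite strand in LYZ, MRPL34, CISH, CCND3, SESN3, BCL2L11, BMF, TNFRSF10A, SLC7A5, SLC1A5, SLC16A1, BSG, MTHFD2, HSP90AA1, HSF1, PSME3, AIFM2, SLC7A11, FTH1, PRDX1, OPLAH, NQO1, MMP9, CLEC12A, ASAH1, DNASE2, ATG16L2, SAMHD1, ANKRD52, ZNF184, TIMM8B, HJURP, NDUFA1, NDUFA3, ATP5ME, APOBR and SEPTIN2. Overlap on the same strand, which makes a value uncertain, holds for MCL1, SLC16A3, MXD1, MXD4, HSPA8, HSPE1, ALDH4A1, ALDH2, SRXN1, NFE2L2, MT1X, CD163, CD68, TPP1, HLA-B, UBA7, TRIM22, RPS26P19 and both read-through genes; of these, CD68, HLA-B, HSPE1, NFE2L2, SLC16A3 and TPP1 overlap on the opposite strand too.

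**Figure D1:**
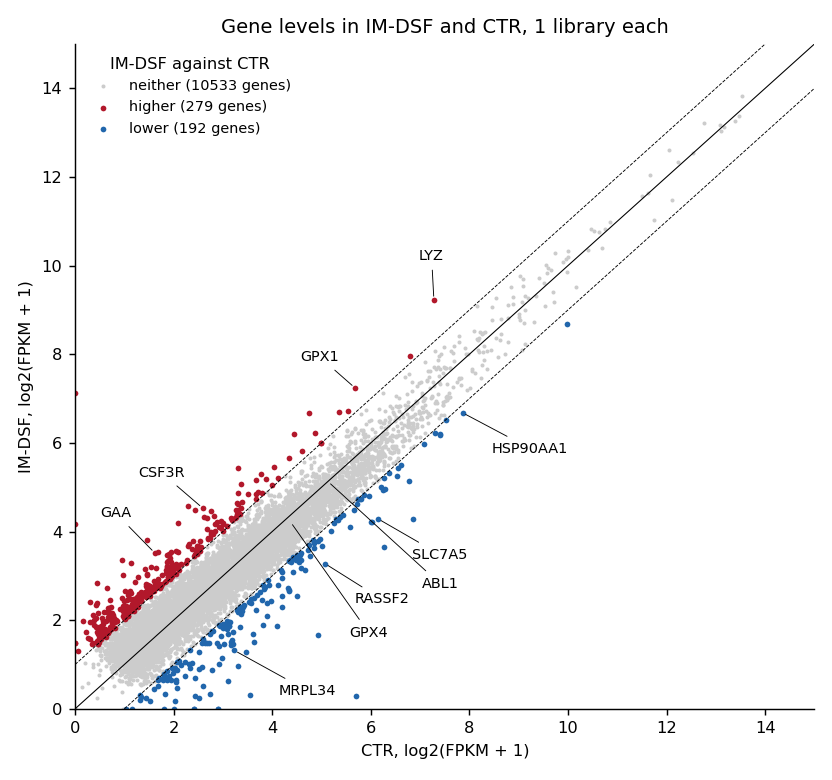
Each point is 1 of the 11004 genes, with log2(FPKM + 1) in CTR on the x axis and in IM-DSF on the y axis. Solid line, equal levels; dashed lines, differences of 1 log2 unit. Red marks the 279 genes called higher and blue the 192 called lower; LYZ and GPX1 lie far above the line and RASSF2 and MRPL34 far below it, while GPX4 and ABL1 lie close to it.

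The genes of the study title were not among the called genes. GPX4 (ENSG00000167468; GRCh38.p14 chromosome 19, 1103926 to 1106791) had 19.6 FPKM untreated, 20.1 with DSF, 19.7 with IM and 17.6 with both, a ratio of IM-DSF to CTR of 0.898 (0.763 to 1.06). ABL1, the kinase partner of the fusion, had 34.0 FPKM untreated and 34.0 with both drugs. BCR, the other partner, had 4.22 FPKM untreated, 4.16 with DSF, 3.99 with IM and 5.93 with both, so the 3 other libraries lay together and IM-DSF above them. Its ratio was 1.41 (1.24 to 1.6), and gene-level values cannot tell the fusion from the unfused alleles.

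Of 27 measured genes of the BCR-ABL pathway, 2 were called higher and none lower, with a median difference of 0.07. GRB2, the adaptor that binds BCR-ABL and couples it to RAS, had 11.8 FPKM untreated, 13.6 with DSF, 16.8 with IM and 34.9 with both. The combination library was thus well above both single-drug libraries, with a ratio to CTR of 2.95 (2.69 to 3.24). FES, a myeloid tyrosine kinase, had 4.85, 6.45, 9.80 and 11.5 FPKM in the same order. JAK2 (3.15 FPKM untreated and 6.04 with both drugs) and STAT5A (1.52 and 3.16) had differences of 0.76 and 0.72, short of the size rule.

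The transcriptional targets of these pathways lay below CTR in the combination. All 11 measured STAT5 targets were below CTR, 4 of them called lower, with a median difference of -0.43 (-0.75 with a pseudocount of 0.1 and -0.80 after rescaling to TPM). PIM1, a survival kinase, had 16.0 FPKM untreated, 8.18 with DSF, 4.67 with IM and 2.63 with both, the lowest difference among protein-coding genes without same-strand overlap (-2.23). CISH, a feedback inhibitor of cytokine receptors, had 8.18, 4.74, 1.68 and 1.74 FPKM in the same order, so that IM and IM-DSF were alike. ID1, an inhibitor of differentiation factors, had 8.02, 5.80, 3.21 and 1.73 FPKM. CCND3, a G1 cyclin, had 6.72 FPKM in CTR and between 2.67 and 3.25 in the 3 treated libraries, which did not separate by drug. Of 10 measured ERK targets, 9 were below CTR and 1 was called lower (median -0.48): FOSL1, an AP-1 factor, with 3.21, 1.85, 1.06 and 0.827 FPKM.

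FOXO targets differed the other way for most members: 13 of 18 were above CTR, 3 were called higher and 1 lower, and the median was 0.47. CCNG2, a cyclin that slows division, had 1.45 FPKM untreated, 2.42 with DSF, 6.29 with IM and 5.06 with both. SESN3, a sestrin that restrains mTORC1, had 1.10, 1.59, 3.43 and 3.93 FPKM, and TXNIP, which binds thioredoxin and limits glucose uptake, had 8.6, 11.6, 19.3 and 19.1. For these 3 genes both libraries with IM were above both without it, where IM-DSF above CTR was fixed by the call. The member called lower was BCL2L11, which encodes the cell death protein BIM and is a FOXO target: it had 3.99 FPKM untreated, 1.64 with DSF, 7.32 with IM and 1.02 with both. The IM library was thus the highest of the 4 and the combination the lowest, with a ratio of IM-DSF to CTR of 0.255 (0.192 to 0.333). BCL2L11 is 1 of the genes with overlap on the opposite strand, and use of strand in counting is not given in the sources used here.

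In the BCL2 family as a whole, 11 of 14 measured members were below CTR (median -0.24), with BCL2L11 lower and BMF higher. BMF, another protein that triggers death by binding BCL2, had 3.07 FPKM untreated, 3.70 with DSF, 6.82 with IM and 8.40 with both. PMAIP1 (16.7 FPKM untreated, 8.99 with both drugs) and BIK (1.95 and 0.928), which also promote death, differed by -0.83 and -0.62. MCL1 (32.3 and 34.3 FPKM) and BCL2 (7.65 and 6.26), which protect cells, differed by 0.09 and -0.25. None of 19 caspase and death receptor genes was called; TNFRSF10A, a TRAIL receptor, was nearest at 10.8 FPKM untreated and 5.02 with both drugs (-0.97).

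Growth and biosynthesis genes lay below CTR by small amounts that ran through whole lists. The median over all tested genes was 0.02, but it varied with level. It was -0.04 for genes at a mean of 5 to 20 FPKM and -0.21 for the 1299 genes at 20 to 100 FPKM. The lists here and below were not matched for level, so how much of a list median goes with level was not tested. All 30 measured ribosome biogenesis genes were below CTR, none past the size rule, with a median of -0.49 and a range of -0.90 to -0.20. DDX21, a nucleolar helicase, had 92.9 FPKM untreated, 73.2 with DSF, 49.8 with IM and 49.3 with both. The ribosomal proteins themselves did not share this: 32 of 44 were above CTR (median 0.17), though near-identical copies make single values uncertain, and the median was 0.08 when each gene was summed with its named pseudogenes. Of 20 aminoacyl-tRNA synthetases 17 were below (median -0.40), as were 18 of 20 nucleotide synthesis genes (median -0.30) and 17 of 20 genes of glycolysis and the pentose phosphate pathway (median -0.35).

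Nutrient transporters were divided: of 13 amino acid transporters 5 were above CTR and 8 below, 1 was called higher and 3 lower, and the median was -0.03 (-0.22 at a mean of at least 5 FPKM). SLC7A5, which imports large neutral amino acids, had 69.7 FPKM untreated, 51.8 with DSF, 22.4 with IM and 18.5 with both. SLC1A5, a glutamine transporter, had 77.2, 69.0, 49.3 and 30.01 FPKM, and SLC38A1, another glutamine transporter, 20.6, 15.6, 10.2 and 9.74. SLC36A1, which exports amino acids from lysosomes, was the 1 called higher, with 1.18 FPKM in CTR and 4.25 to 4.71 in the treated libraries. SLC16A1, the lactate carrier MCT1, had 21.8, 18.5, 15.2 and 4.80 FPKM, so the combination was below both single drugs, with a ratio to CTR of 0.22 (0.192 to 0.252). SLC16A3, the other main lactate carrier, had 7.07 FPKM untreated and 6.08 with both drugs (-0.19), and BSG, the chaperone of both carriers, had 27.0 and 37.2 (0.44). In serine and one-carbon metabolism, 10 of 14 genes were below CTR (median -0.51), among them MTHFD2 (35.5 to 15.3 FPKM) and PHGDH (19.7 to 8.86), both called lower.

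Of the 11 measured genes of the MYC, MYB and MAX network, 2 were called higher and none lower, and both called genes are MYC antagonists. MXD4 had 4.48 FPKM untreated, 7.47 with DSF, 11.9 with IM and 10.9 with both, and MXD1 had 0.353, 2.28, 3.92 and 4.27. Both encode partners of MAX that repress MYC sites, and both overlap another gene on the same strand, so their values are uncertain. Over the 11 genes of the network 8 were above CTR and 3 below, down to -0.63, and the median was 0.09 (-0.26 without overlap on either strand). Summed over all 13 listed genes, the level was 167 FPKM untreated and 147 with both drugs.

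Cell cycle genes lay below CTR in nearly every member, but the size rule called 0 of 32 and 1 of 32, a share near the 1.74% of all genes. All 32 G1/S and replication genes were below CTR, with differences from -0.78 to -0.17 (median -0.49), and none was called. CDC6, a licensing factor of replication, had 19.0 FPKM untreated, 15.8 with DSF, 13.3 with IM and 10.6 with both. Of 32 G2/M genes 29 were below CTR (median -0.48), and 1 was called. That gene was MKI67, the proliferation antigen Ki-67, with 24.5 FPKM untreated, 11.0 with DSF, 27.8 with IM and 7.76 with both. Its level was low in the 2 libraries with DSF and not in IM alone, unlike CDC25A, a phosphatase that activates cyclin-dependent kinases, which had 31.3, 25.6, 12.1 and 11.8 FPKM.

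The promoters of mitotic genes carry a known pair of elements, the CHR (TTTGAA) and the NF-Y box (CCAAT). In RefSeq windows of 250 bases before to 50 bases after the start, searched on both strands, the CHR letters were found in 17 of 26 G2/M promoters (65.4%) and in 9.74% of all 7625 protein-coding tested promoters. MKI67 is shown because it was the 1 gene of the G2/M list past the size rule. It was chosen after its values were seen. The 250 bases before its start are printed 5′ to 3′ with the CHR letters in capitals, at positions -47 and -29 from the start (GRCh38.p14, as are the other promoters printed).
MKI67 (chr10:128126424-128126673, minus strand): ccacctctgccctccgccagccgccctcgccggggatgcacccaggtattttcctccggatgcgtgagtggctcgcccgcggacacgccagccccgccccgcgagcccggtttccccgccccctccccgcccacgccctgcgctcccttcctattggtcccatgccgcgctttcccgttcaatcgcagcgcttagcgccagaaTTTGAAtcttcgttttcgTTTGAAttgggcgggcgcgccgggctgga
Among all called genes the element was not concentrated to the same degree: 11.8% of 153 promoters of higher genes and 17.1% of 76 promoters of lower genes held it. Letters of the E2F element TTTGGCGC were in 31.0% of 29 G1/S promoters and in 1.27% of all promoters. A match of letters is a description and not a shown binding site.

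Heat shock and chaperone genes had the lowest median of the lists with at least 10 measured genes, at -0.81, with 20 of 21 genes below CTR and 4 called lower. HSP90AA1, the inducible form of HSP90, had 231 FPKM untreated, 164 with DSF, 138 with IM and 102 with both. HSPA8, the constitutive HSP70, had 134, 114, 79.4 and 61.8 FPKM, and HSPH1, its exchange factor, 21.8, 14.4, 11.7 and 10.1. HSPE1, the mitochondrial co-chaperonin, had 91.2, 72.2, 57.3 and 36.9. All 4 genes had CTR highest, then DSF, then IM, then IM-DSF, where IM-DSF below CTR was fixed by the call. HSPE1 and HSPA8 overlap other genes on the same strand. The factors HSF1 (6.26 FPKM untreated, 5.63 with both drugs) and HSF2 (6.59 and 7.08) differed by -0.13 and 0.09, and HSPA1A, an HSP70 that is induced strongly by protein damage, was at 0.424 FPKM untreated and 0.384 with both drugs, below the filter.

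Heat shock elements, searched as GAANNTTC on both strands, were in 36.8% of 19 chaperone promoters and in 4.45% of all promoters. HSPA8 is printed because it is the named chaperone gene whose promoter holds the letters; they are in capitals, at positions -230 and -50.
HSPA8 (chr11:123062137-123062386, minus strand): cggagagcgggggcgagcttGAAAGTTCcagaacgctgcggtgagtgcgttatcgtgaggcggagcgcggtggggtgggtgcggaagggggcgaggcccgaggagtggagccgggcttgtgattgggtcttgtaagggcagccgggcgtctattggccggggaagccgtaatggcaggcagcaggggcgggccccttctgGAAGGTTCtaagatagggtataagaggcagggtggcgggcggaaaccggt

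In the endoplasmic reticulum list, 16 of 21 genes were below CTR and 2 were called lower (median -0.23). XBP1, the factor that drives secretory capacity after splicing by IRE1, had 19.0 FPKM untreated, 9.28 with DSF, 8.39 with IM and 5.60 with both. MANF, a secreted chaperone of the reticulum, had 17.3, 13.4, 10.8 and 7.44 FPKM. TRIB3, a target of ATF4 and CHOP, had 11.4 FPKM untreated and 4.69 with both drugs. It was the 1 called gene of the 17 measured on the ATF4 list (median -0.09). That count depends on how lists were divided: SLC7A5, MTHFD2 and PHGDH, called lower above, were placed in the transporter and one-carbon lists. The NF-Y box CCAAT, part of the element that stress factors of the reticulum use, was in 18 of 20 promoters of the list (90%) and in 37.8% of all promoters. MANF is printed as the example, chosen after its values were seen, with the 3 boxes in capitals at positions -159, -107 and -63.
MANF (chr3:51385041-51385290, plus strand): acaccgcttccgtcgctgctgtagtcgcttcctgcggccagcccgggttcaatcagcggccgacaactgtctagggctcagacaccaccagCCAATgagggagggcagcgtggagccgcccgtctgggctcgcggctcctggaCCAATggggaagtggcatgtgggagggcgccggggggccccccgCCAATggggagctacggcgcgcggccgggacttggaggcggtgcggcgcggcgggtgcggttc

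Proteasome subunits lay below CTR as a list: 30 of 32 were below CTR, 2 were called lower and the median was -0.48. PSMB6, a catalytic core subunit, had 27.9 FPKM untreated, 23.1 with DSF, 12.7 with IM and 12.4 with both, and PSME3, an activator cap, had 13.9, 13.4, 4.57 and 3.30. In both genes DSF lay nearer to CTR than to the 2 libraries with IM, which were low. The p97-NPL4 list had no called gene among 13 (median -0.18); VCP, which encodes p97, had 53.6, 49.7, 40.4 and 41.9 FPKM. Of 7 measured aldehyde dehydrogenases 1 was called, ALDH4A1, a mitochondrial enzyme of proline breakdown, at 2.15 FPKM untreated and 5.75 with both drugs, which overlaps another gene on the same strand. ALDH2, the mitochondrial enzyme that clears acetaldehyde, was below the filter, with 0.0124 FPKM untreated and 0.181 with both drugs.

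**Figure D2:**
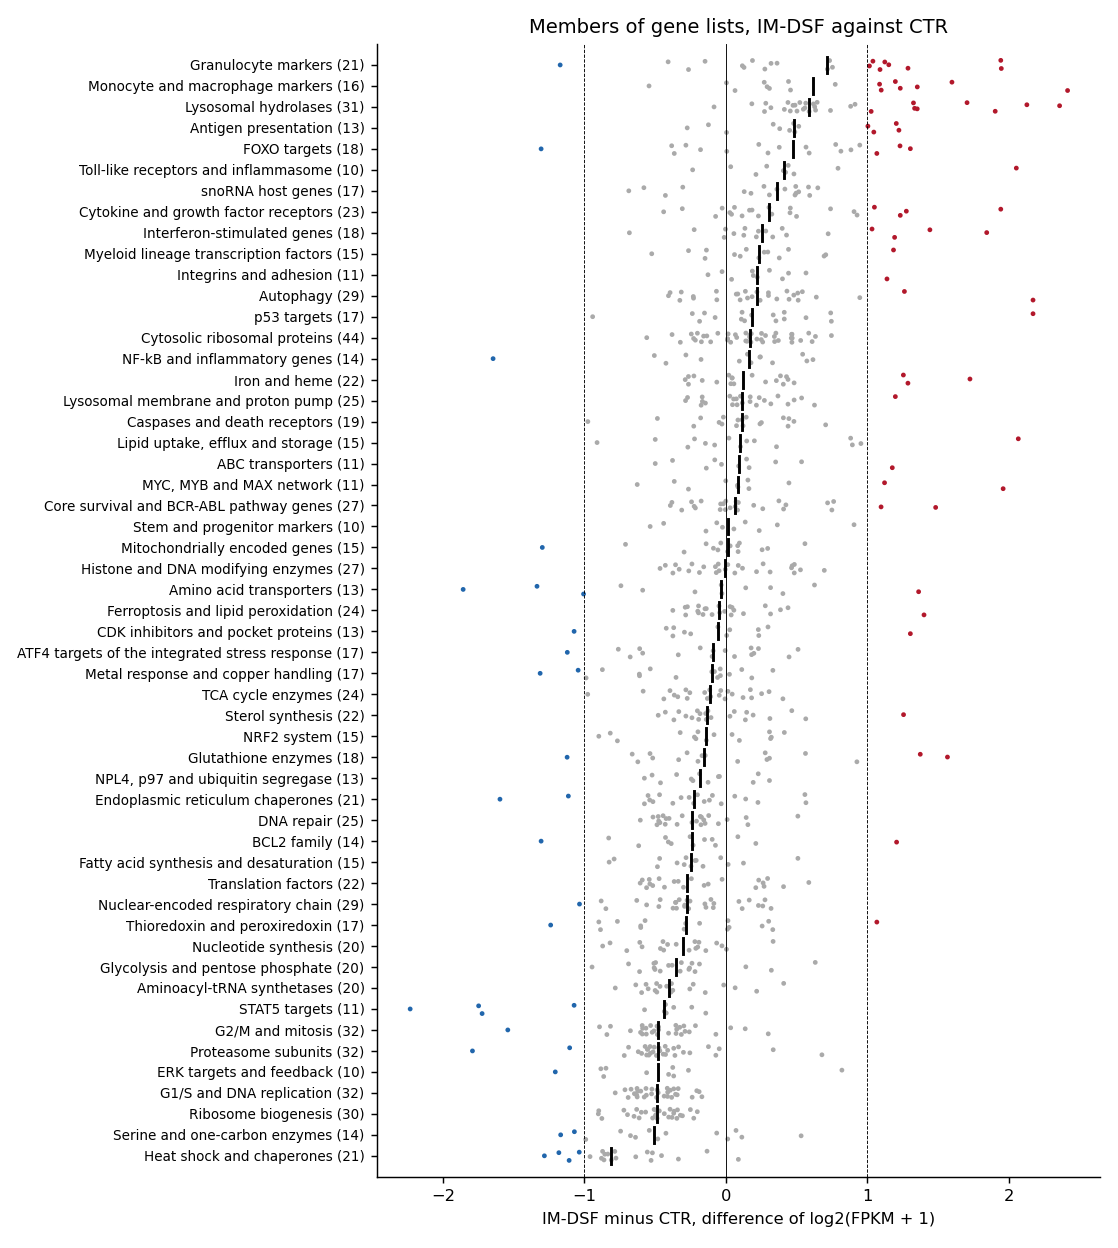
Points are single genes of each list past the filter, with the number of genes in brackets; the x axis is the difference of log2(FPKM + 1), IM-DSF minus CTR, and black bars are list medians. Red and blue points passed 1 log2 unit upward and downward. Only lists with at least 10 measured genes are drawn; among them the granulocyte, monocyte and lysosomal hydrolase lists have the highest medians (0.72, 0.62 and 0.59) and the chaperone list the lowest (-0.81).

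Ferroptosis genes had a median difference of -0.04 over 24 measured members, and 1 was called. SAT1, the enzyme that acetylates spermidine and spermine, had 4.23 FPKM untreated, 4.58 with DSF, 7.27 with IM and 12.8 with both, a ratio of 3.03 (2.28 to 4.04). The defences against lipid peroxides other than GPX4 were also near CTR: AIFM2 (FSP1, which regenerates ubiquinol) had 1.48 FPKM untreated and 1.17 with both drugs, and DHODH 2.25 and 1.83. SLC7A11, the cystine importer, had 11.3, 8.38, 7.73 and 14.3 FPKM across CTR, DSF, IM and IM-DSF, so that it was lower with each drug alone and highest with both. FTH1, the ferritin heavy chain, had 66.6, 43.4, 45.7 and 69.3 FPKM, and HMOX1, which degrades heme, 2.04, 0.857, 1.21 and 2.14. SLC7A11, FTH1 and HMOX1 shared this order of libraries, with the single drugs below CTR and the combination at or above it. They were picked out after their values were seen, and their differences from CTR of 0.32, 0.06 and 0.04 are small.

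Antioxidant enzymes split by gene. GPX1, the cytosolic glutathione peroxidase, had 50.1 FPKM untreated, 54.8 with DSF, 80.0 with IM and 151 with both, 3.0 times CTR (2.77 to 3.26), while GPX4 was not called. GENCODE 29 lists GPX1 as a polymorphic pseudogene, so it was not ranked among the protein-coding genes. PRDX1, a peroxiredoxin, had 169, 139, 80.8 and 71.0 FPKM, and GLO1, which detoxifies methylglyoxal with glutathione, 93.3, 92.2, 34.3 and 42.3. OPLAH, which returns oxoproline to glutamate, had 1.70, 2.72, 4.07 and 6.01 FPKM. Within the 18 glutathione genes 2 were called higher and 1 lower (median -0.16), and within 17 thioredoxin genes 1 higher and 1 lower (median -0.28). None of 15 NRF2 genes was called: SRXN1 had 36.9 FPKM untreated and 19.3 with both drugs (-0.90), and NQO1 6.36 and 3.18 (-0.82), while the factor NFE2L2 had 11.4 and 10.7 (-0.08).

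Iron and metal genes were also divided. Of 22 iron and heme genes 16 were above CTR and 3 were called higher. SLC40A1, the iron exporter ferroportin, had 1.35 FPKM untreated, 1.58 with DSF, 3.02 with IM and 4.62 with both, and BLVRB, a biliverdin reductase, 1.45, 2.28, 3.24 and 5.0. ALAD, an enzyme of heme synthesis, had 1.68 FPKM in CTR and 7.14 to 7.98 in the 3 treated libraries, so its difference rests on the CTR library. The metallothioneins MT1E (16.3, 10.9, 9.83 and 5.98 FPKM) and MT1X (8.73, 6.63, 5.58 and 3.72), which bind zinc and copper, were called lower, and near-identical copies make them uncertain.

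Genes of mature myeloid cells were among the highest differences. Of 34 granulocyte markers, 21 were past the filter, 8 were called higher and 1 lower, with a median of 0.72 (0.36 over members without overlap on either strand). Another 9 were listed at 0 in all 4 libraries, among them the granule genes LTF, LCN2 and MMP9. LYZ, lysozyme (ENSG00000090382 in the same build as above), had 154 FPKM untreated, 217 with DSF, 399 with IM and 599 with both. CSF3R, the receptor for G-CSF, had 5.0, 9.5, 18.0 and 22.1 FPKM, and AZU1, a primary granule protein, 111, 170, 241 and 247. In these 3 genes the order was CTR, DSF, IM and IM-DSF from low to high, where IM-DSF above CTR was fixed by the call. S100A9, a subunit of calprotectin, differed from that order, with 2.03, 2.48, 2.08 and 6.41 FPKM. CST7, the 1 marker called lower, had 2.22 FPKM untreated, 1.68 with DSF, 0.476 with IM and 0.432 with both (-1.17). PRTN3, proteinase 3, had 769, 1016, 1239 and 989 FPKM and was not called (0.36), and CEBPE, a factor of late granulocytes, had 6.65 and 5.38 FPKM untreated and with both drugs (-0.26).

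Of 32 monocyte and macrophage markers 16 were past the filter, 7 were called higher and none lower (median 0.62). With no filter the median was 0.12, over all 32 members, and genes such as CSF1R and CX3CR1 passed the filter through the libraries in which they were high. CSF1R, the receptor for M-CSF, had 0.434 FPKM untreated, 1.03 with DSF, 1.94 with IM and 2.38 with both. TYROBP, the adaptor DAP12, had 2.86, 3.55, 6.65 and 8.88 FPKM, and MS4A6A 0.929, 2.78, 5.81 and 9.31. CD14, the lipopolysaccharide co-receptor, stayed below the filter at 0.161 FPKM untreated and 0.167 with both drugs, as did CD163 at no more than 0.0126. Summed over the list, the level was 136 FPKM untreated, 151 with DSF, 195 with IM and 221 with both. The 15 myeloid transcription factors had 1 called gene, IRF5 (1.07, 1.41, 3.86 and 3.70 FPKM), and a median of 0.23 (0.06 with no filter).

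Other genes among the 25 highest protein-coding genes had varied roles. CFD, complement factor D, had 25.9 FPKM untreated, 48.9 with DSF, 84.7 with IM and 102 with both. GNG7, a G protein gamma subunit, had 0.234, 1.66, 4.09 and 4.29 FPKM, the largest ratio of the 25 at 18.4 (10.9 to 34.9) from a low start. F13A1, the A chain of coagulation factor XIII, had 1.76, 3.44, 7.02 and 7.21, and CLEC12A, a receptor of myeloid and leukemic cells, 1.73, 2.87, 5.42 and 7.10. AOAH, which removes acyl chains from lipopolysaccharide, had 0.961, 2.49, 5.88 and 7.15. The 2 libraries with IM were above the 2 without it in each of these 5 genes. They were picked from the 25 after their values were seen, and IM-DSF above CTR was fixed by the ranking. Of the same 25, YWHAB (26.8 FPKM with DSF, 11.6 with IM) and EIF2S3B (3.96 and 3.07) were higher in DSF than in IM. FGL2, a fibrinogen-like protein of macrophages, had 0.372, 0.958, 1.29 and 3.47 FPKM, so the combination was above both single drugs.

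**Figure D3:**
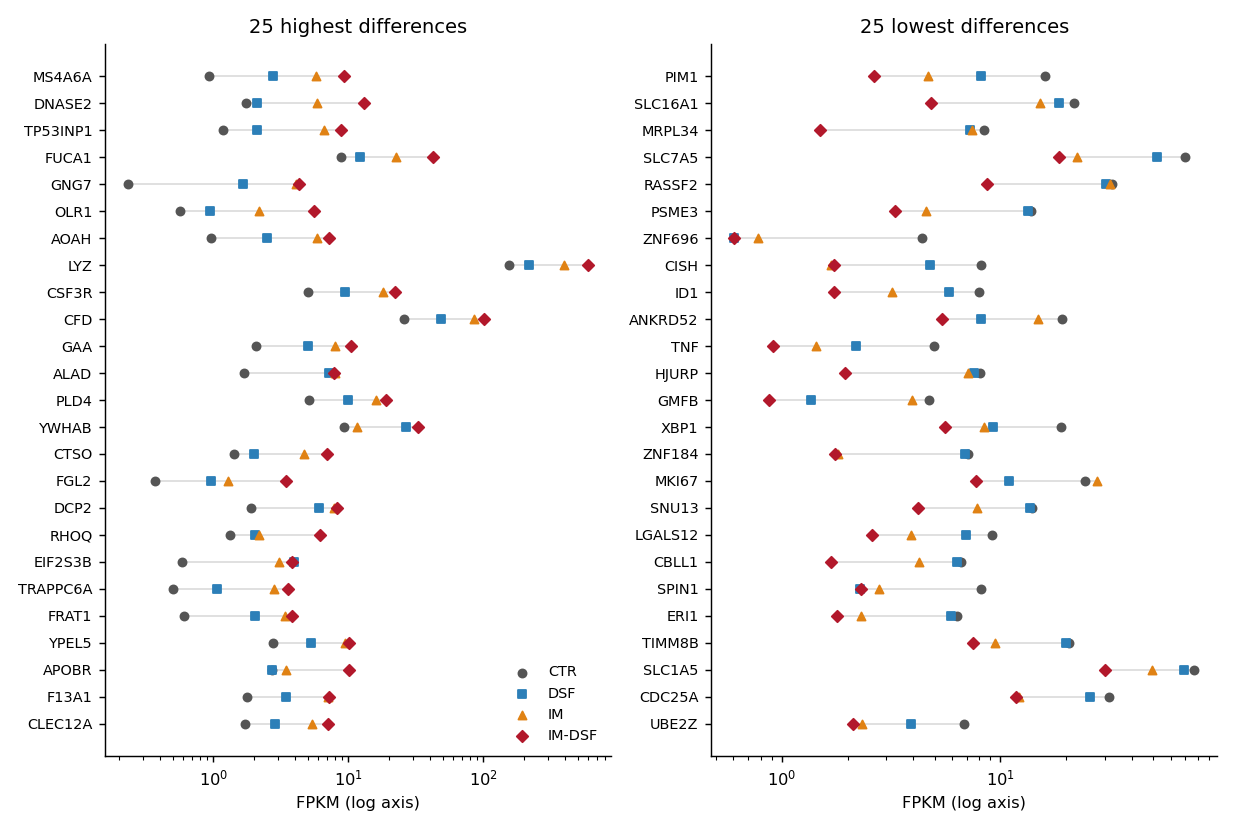
FPKM on a log axis in the 4 libraries for the 25 highest and 25 lowest differences of IM-DSF against CTR among protein-coding genes without same-strand overlap. Grey circles, CTR; blue squares, DSF; orange triangles, IM; red diamonds, IM-DSF. For genes such as CSF3R the order from low to high is CTR, DSF, IM, IM-DSF; for YWHAB the DSF and IM-DSF points lie together, and for RASSF2 the 3 other libraries lie together.

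Markers of other lineages gave little signal. Of 19 lymphoid markers 2 were past the filter, CD4, which monocytes also carry (12.9 FPKM untreated, 28.1 with both drugs), and NKG7 (11.4 and 13.3). CD3E, CD3G and MS4A1 were listed at 0 in all libraries, and the summed lymphoid level went from 25.5 FPKM in CTR to 42.3 in IM-DSF, a difference that lay mostly in CD4. Of 20 erythroid markers 3 were past the filter and 12 were at 0 everywhere, HBA1 among them. The part of other cell types in the results was not tested beyond these levels. Of 10 measured stem and progenitor markers 5 were above CTR and 5 below. FLT3, a progenitor receptor kinase, was the highest of them at 10.4, 13.9, 20.5 and 20.4 FPKM (0.91).

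Lysosomal hydrolases were above CTR in 30 of 31 measured genes, with 8 called higher, none lower and a median of 0.59. PSAP, the precursor of the saposins that aid lipid breakdown, had 39.7 FPKM untreated, 56.8 with DSF, 80.8 with IM and 103 with both. GAA, which breaks down glycogen, had 2.06, 5.04, 8.03 and 10.5 FPKM, and ASAH1, acid ceramidase, 10.4, 12.2, 19.6 and 27.9. TPP1, a peptidase that overlaps another gene on the same strand, had 13.6, 18.7, 31.7 and 35.6. DNASE2, which digests DNA, had 1.75 FPKM untreated and 13.1 with both drugs, the highest difference of the list (2.36; ratio 7.51, 5.51 to 10.2). All 5, taken from the 8 called genes, had the order CTR, DSF, IM, IM-DSF, where IM-DSF above CTR was fixed by the call. The membrane and proton pump genes of the same organelle showed less, with 1 of 25 called higher (CD68) and a median of 0.12, and autophagy genes had 2 of 29 (TP53INP1 and ATG16L2) and 0.22.

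The E-box CACGTG, core of the motif bound by the lysosomal factors TFEB and TFE3 and also by MYC and MAX, was in 5 of 18 hydrolase promoters (27.8%), in 7 of 25 ribosome biogenesis promoters (28.0%) and in 11.2% of all promoters. It was thus as frequent in a list that was lower as in one that was higher. The longer form TCACGTGA, which contains the E-box, was in 3 of 18 hydrolase promoters (16.7%) and in 2.23% of all. Of the lists below CTR, ribosome biogenesis had it in none of 25 promoters and G1/S and replication in 3 of 29 (10.3%). The longer form was thus not confined to the higher list. GAA is printed as the named hydrolase gene with E-boxes, in capitals at positions -76 and -31.
GAA (chr17:80101331-80101580, plus strand): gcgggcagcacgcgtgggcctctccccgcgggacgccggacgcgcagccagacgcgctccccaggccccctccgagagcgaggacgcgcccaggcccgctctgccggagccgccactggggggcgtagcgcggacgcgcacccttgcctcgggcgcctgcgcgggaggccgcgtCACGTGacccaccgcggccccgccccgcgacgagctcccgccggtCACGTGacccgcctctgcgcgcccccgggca
For granulocyte markers, the C/EBP element TTGCNNAA was in 6 of 15 promoters (40.0%) and in 6.79% of all. It was in 11.8% of promoters of higher genes and 5.26% of promoters of lower genes. The PU.1 element GAGGAAGT was in 2 of 15 granulocyte promoters (13.3%), 2 of 16 monocyte promoters (12.5%) and 2.61% of all. It was also in 3 of 25 promoters of ribosome biogenesis genes (12%), a list below CTR. Among called genes it was in 3.92% of promoters of higher genes and 0% of promoters of lower genes. These shares rest on few promoters. The NRF2 element TGACNNNGC was in 9 of 18 hydrolase promoters (50%), 6 of 15 granulocyte promoters (40%) and 15.6% of all. The STAT5 element TTCNNNGAA was in 1 of 8 STAT5 target promoters (12.5%) and 6.15% of all.

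Antigen presentation genes were above CTR in 11 of 13 cases, with 4 called higher (median 0.48, and 1.01 over members without overlap on either strand). That 1.01 matches the difference of HLA-E itself, so it rests on the value of this gene. HLA-E had 30.8 FPKM untreated, 39.2 with DSF, 56.0 with IM and 62.8 with both, and TAPBP, the peptide-loading chaperone tapasin, had 11.8, 19.0, 25.9 and 25.4. CD74, the invariant chain of class II, had 2.58, 4.97, 6.37 and 7.36, and HLA-B, which shares sequence with HLA-C, 23.2, 38, 44.2 and 54.9. HLA-E passed the size rule narrowly and missed it under 2 other scalings (0.98 under each). Among 18 interferon-stimulated genes 4 were called higher (median 0.26): SAMHD1, which depletes nucleotides, had 45.3, 56.7, 77.0 and 105 FPKM, and STAT2, a factor of interferon signalling, 4.53, 5.42, 8.38 and 10.3. UBA7 and TRIM22 were the other 2, both with same-strand overlap. IFNGR1, a chain of the interferon gamma receptor, had 6.82 FPKM in CTR and 15, 15.6 and 18.0 in DSF, IM and IM-DSF. Of 14 inflammatory genes the 1 called was TNF, lower at 4.98, 2.19, 1.43 and 0.911 FPKM.

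Several large differences followed DSF and not IM in the single-drug libraries. YWHAB, a 14-3-3 adaptor, had 9.31 FPKM untreated, 26.8 with DSF, 11.6 with IM and 32.6 with both. The other 5 measured adaptors of the family were all below CTR, YWHAG from 383 to 243 FPKM (-0.65) the lowest of them. GMFB, a glia maturation factor, had 4.69, 1.36, 3.92 and 0.872 FPKM, and ANKRD52, a subunit of a protein phosphatase, 19.2, 8.14, 14.9 and 5.43. MKI67 was likewise low in both libraries with DSF. Others followed IM: ZNF184, a zinc finger protein, had 7.11, 6.87, 1.81 and 1.75 FPKM, ERI1, an exonuclease of histone RNA, 6.34, 5.95, 2.31 and 1.79, and TIMM8B, a mitochondrial import chaperone, 20.5, 19.9, 9.47 and 7.48. These single-drug values share the CTR library with the combination, so they are set side by side here and not counted as separate support.

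In a further set the 2 single-drug libraries lay near CTR and IM-DSF stood apart. With both single-drug differences under 0.3 log2 units, 18 protein-coding genes without same-strand overlap were called, 10 higher and 8 lower; the limit of 0.3 was chosen after the values were seen. RASSF2, a growth-restraining RAS effector, had 32.6 FPKM untreated, 30.6 with DSF, 31.9 with IM and 8.69 with both, a ratio of 0.267 (0.244 to 0.292). HJURP, the chaperone that loads the centromeric histone, had 8.05, 7.58, 7.12 and 1.95 FPKM, and MRPL34, a mitochondrial ribosomal protein, 8.38, 7.30, 7.40 and 1.49. How many tested genes met the limit without a call was not counted, so the set has no share beside it. It held 3 respiratory chain or ATP synthase genes, picked out after their values were seen. They were NDUFA1 (81.2, 66.6, 74.3 and 39.1 FPKM), NDUFA3 (9.12, 9.09, 10.2 and 3.88) and ATP5ME (61.6, 56.8, 55.8 and 26.7). In the list of nuclear-encoded respiratory chain genes, 1 of 29 measured genes was called lower (NDUFA1). On the higher side were APOBR, a receptor for apolipoprotein B (2.73, 2.73, 3.44 and 10.1 FPKM), SC5D, an enzyme of sterol synthesis (1.79, 1.73, 2.0 and 5.67), and SEPTIN2, a cytoskeletal GTPase (6.97, 7.16, 6.90 and 17.2). YTHDF3, a reader of methylated RNA, had 2.57, 2.58, 2.38 and 7.72. Each of these rests on the 1 combination library, and no replicate shows how often 1 library departs in this way.

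**Figure D4:**
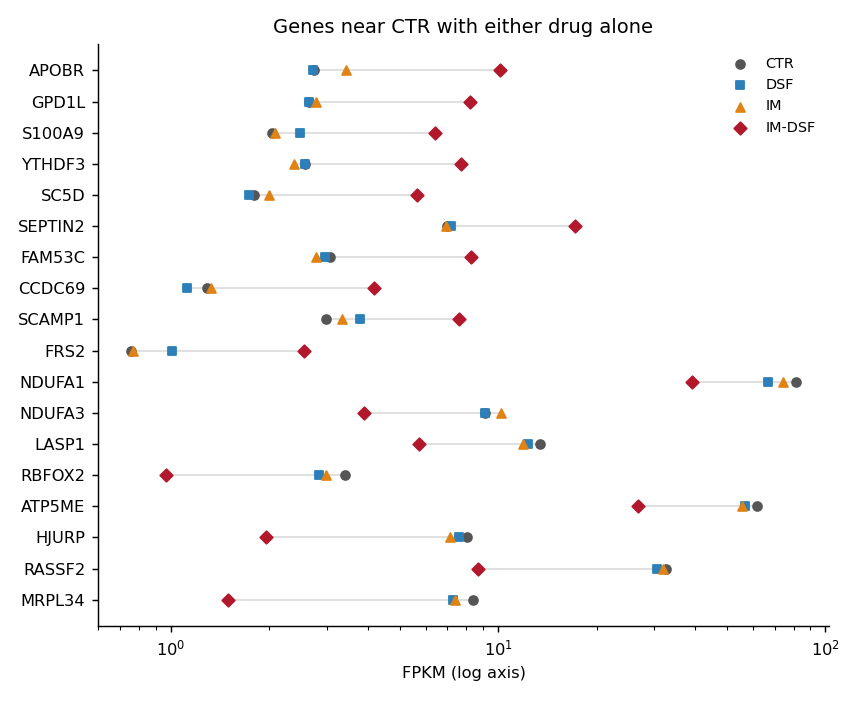
FPKM on a log axis in the 4 libraries for the 18 genes called in IM-DSF against CTR whose single-drug differences were both under 0.3 log2 units. Symbols as labelled. The CTR, DSF and IM points lie together for each gene by the way the genes were chosen, and the IM-DSF points lie to the right for 10 genes and to the left for 8.

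The converse was seen too, with CTR apart from all 3 treated libraries. ZNF696, a zinc finger protein, had 4.40 FPKM in CTR and 0.607 to 0.779 in the treated libraries, and SPIN1, a histone reader, had 8.18 and 2.27 to 2.78. DCP2, the decapping enzyme, had 1.89 FPKM in CTR and 6.05, 7.86 and 8.23 in DSF, IM and IM-DSF. EIF2S3B, which has a near-identical copy, had 0.589 and 3.07 to 3.96. The read-through gene BLOC1S5-TXNDC5 was the highest difference of all, listed at 0 in CTR and at 137 to 163 FPKM elsewhere, and FMC1-LUC7L2 had 76.2 FPKM in CTR and 8.84 to 11.6 elsewhere. Both share exons with their component genes, so their values depend on how reads were divided. For these genes the call rests on the CTR library as much as on the combination.

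IM against DSF shares no library with IM-DSF against CTR and can be read as a separate measurement of the same genes. The 279 higher genes had a median IM minus DSF difference of 0.46, and 241 of them (86.4%) were higher in IM than in DSF. The 192 lower genes had a median of -0.24, and 132 of them (68.8%) were lower in IM. Over all 11004 genes the median was 0.02 and 53.2% were higher in IM. In protein-coding genes without same-strand overlap the counts were 140 of 158 and 59 of 75. Most genes called in the combination thus differed in IM against DSF in the same direction as in IM-DSF against CTR. YWHAB, GMFB, MKI67 and BCL2L11 were among those that did not.

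**Figure D5:**
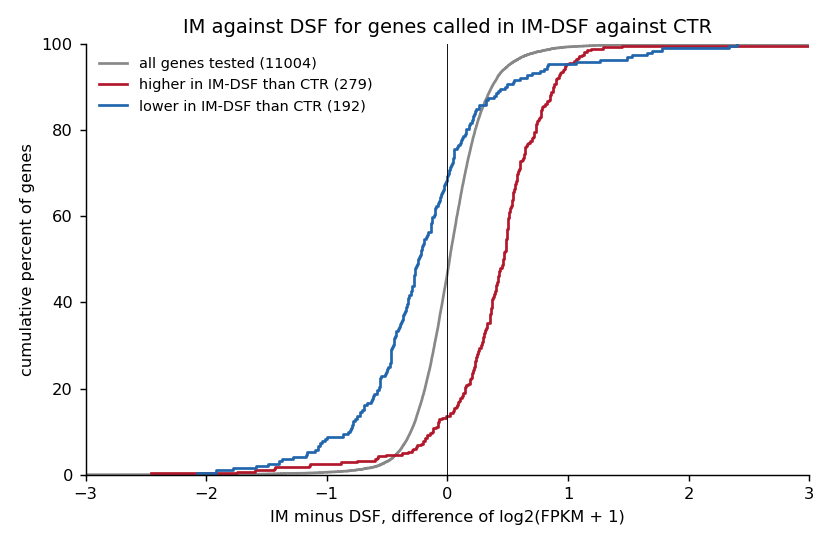
Cumulative percent of genes (y axis) against the IM minus DSF difference of log2(FPKM + 1) (x axis) for all 11004 genes, the 279 called higher and the 192 called lower in IM-DSF against CTR. The higher genes lie to the right of all genes (median 0.46) and the lower genes to the left (median -0.24).

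The called genes differed in kind. Long non-coding genes made up 53 of the 279 higher genes and 10 of the 192 lower ones; of 630 tested, 8.41% were called higher and 1.59% lower, and their median difference was 0.29. Pseudogenes showed the reverse, with 19 of 936 (2.03%) higher and 66 (7.05%) lower. Of these 66, 48 have a tested gene of the parent name, and 10 of the 48 have a parent that was called lower too. RPS26P19, a pseudogene that overlaps another gene on the same strand, had 51.0, 56.1, 47.3 and 0.230 FPKM while its parent RPS26 had 8.63 FPKM untreated and 7.15 with both drugs. The 38 different parents had a median difference of -0.51, so many of the lower pseudogenes are copies of genes that were themselves below CTR. Among the 9325 protein-coding genes that are not read-through, 203 were higher and 104 lower. By level, the median was 0.14 at a mean of 1 to 2 FPKM with 64 higher and 32 lower genes, -0.21 at 20 to 100 FPKM with 22 and 36, and -0.05 at 100 FPKM and above with 3 and 6.

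Mitochondrially encoded genes had 1 call among 15. MT-ND6, the protein gene encoded on the light strand, had 1015 FPKM untreated, 853 with DSF, 666 with IM and 413 with both, a ratio of 0.406 (0.389 to 0.425). The list median was 0.01 and turned to -0.01 under median-of-ratios and trimmed-mean factors. Nuclear-encoded respiratory chain genes were below CTR in 22 of 29 cases (median -0.27), and tricarboxylic acid cycle genes in 16 of 24 (median -0.11). Sterol synthesis genes had a median of -0.13 with 1 called gene, SC5D, and fatty acid synthesis genes one of -0.25 with none; SCD, the desaturase that makes oleate, had 167, 136, 139 and 93.9 FPKM. Among p53 targets TP53INP1 was the 1 called gene of 17 (median 0.18), and no gene of DNA repair (25 genes, median -0.24) or of histone and DNA modification (27 genes, median 0.00) was called.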

How the data were processed

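The authors deposited 1 table of FPKM for 50868 genes with 1 value column for each of the 4 libraries, per the file headers. The submitters' processing notes name HISAT2 2.0.4 and GRCh38.p14, and the labels' protocols describe a stranded mRNA kit. Not given in the sources used here: the read counter, its annotation and gene lengths, and whether counting used strand.

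Gene identifiers were matched to GENCODE 29 (50111 of 50868) for biotypes and exon overlap. Overlap on the same strand marks a value as uncertain, and the report lists the named genes that overlap on either strand. The filter uses the mean of all 4 libraries, so a gene can pass through 1 high library. In single-exon genes, FPKM times length was a whole multiple of 1 step (within 0.05 of a whole number) for about 95.4% of 2881 CTR values, which gives the denominators. In genes with several exons this held for 34.8% of CTR values, so no count test was run. Fragment numbers were approximated from the longest transcript, and ratio intervals are exact conditional binomial intervals. PCR copies make them too narrow.

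Differences used a pseudocount of 1 and a mean of at least 1 FPKM. With 1 library a group the result is a size rule, with no test. The members, the 60 lists (1347 entries, all matched) and the tests were chosen with earlier results of these data known. Named genes are GPX4, BCR and ABL1; the 25 highest and 25 lowest protein-coding genes without same-strand overlap; 5 of each among the remaining genes, as uncertain; and, per list, every called member or else up to 4 with the largest differences. Other genes in the text were chosen after their values were seen. Promoters came from RefSeq (GRCh38.p14; 7625 tested protein-coding genes matched), and the base just before the start is position -1. Python 3.11.15, pandas 2.3.3, numpy 2.4.6 and scipy 1.17.1 were used.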

Additional observations from a re-analysis of the deposited data

How the results depend on the processing

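The counts of called genes depend on the threshold, the filter and the classes kept, while no named gene that was called and no list median of at least 0.1 reversed its direction under another scaling. Against 279 higher and 192 lower genes, a pseudocount of 0.1 gave 576 and 318, rescaling to TPM (14193 genes tested) 906 and 468, and a 1.5-fold size rule 986 and 804. A mean of at least 5 FPKM gave 112 and 116, which moves the share of higher genes among all calls from 59.2% to 49.1%. With only protein-coding genes free of same-strand overlap the counts were 158 and 75 (67.8% higher), and those without overlap on either strand, an alternative chosen after seeing the data, 124 and 45 (73.4% higher). The median IM minus DSF difference of lower genes was -0.37 and -0.36 in those 2 sets. Median-of-ratios factors gave 266 and 201, trimmed-mean factors 263 and 202, no filter 338 and 215, sums with named pseudogenes (also added after seeing the data) 278 and 193, and intervals that exclude 1 left 270 and 190. The median of the aldehyde dehydrogenases, 0.08 over 7 genes, was -0.43 at a mean of at least 5 FPKM and -0.19 without same-strand overlap, and that of the MAX network, 0.09, was -0.26 without overlap on either strand. Several list medians under 0.1 in size changed sign, such as that of the BCR-ABL pathway genes, which was -0.01 at a mean of at least 5 FPKM. Other medians moved by over 1.5 times with their sign kept. With no filter, interferon-stimulated genes gave 0.17, p53 targets 0.12, inflammatory genes 0.10 and glutathione enzymes -0.07; at a mean of at least 5 FPKM, thioredoxin genes gave -0.57, DNA repair -0.37 (-0.43 without overlap on either strand) and iron and heme 0.23; and without overlap on either strand, reticulum chaperones gave -0.46, ATF4 targets -0.22, the BCL2 family -0.40 and sterol synthesis -0.02. No paired analysis was possible because each group has 1 library. Depth limits genes near 1 FPKM, where intervals are wide, as for TRAPPC6A (2.92 to 20.3).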
